A study of Mus musculus with 9 samples.

Results

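miR-223 and the 2 arms of miR-142, miR-142-3p and miR-142-5p, were followed through a microRNA profile of mouse bone marrow after the antimetabolite 5-fluorouracil (5-FU). Members were taken by name from the probe descriptions of the deposited normalized table, leaving out probes named for hairpins, star strands or retired entries. Each name was found on 1 probe, which gave 3 of 582 miRNA probes. The samples were whole marrow, with the red cells lysed before total RNA was extracted. The mice were C57Bl6/J females, 6 weeks old. There were 5 untreated animals and 3 that had received 150 mg/kg of 5-FU by intraperitoneal injection, and marrow was taken at day 4. Profiling took 9 arrays in 2 batches, the first with the 5 untreated mice plus 5-FU animal 1 and the second with all 3 treated mice. 5-FU animal 1 was thus measured in both, and its 2 arrays were averaged as 1 animal.

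MicroRNAs pair with messenger RNAs mainly through the seed, bases 2 to 8 of the mature strand, and lower the output of the messages they pair with. miR-223 is enriched in granulocytes and monocytes, is switched on by the myeloid factors C/EBP and PU.1, and restrains the production and activity of neutrophils in mice. miR-142 is made in nearly all blood lineages and in few other cells, and both arms of its hairpin enter Argonaute complexes. 5-FU kills dividing cells, and within days it empties the marrow of most of its proliferating progenitors.

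The mature sequences are shown because the 3 members differ in seed and thus in the messages they can pair with, although 2 of them leave the same hairpin. They are RefSeq entries on GRCm38.p6, where the miR-142 arms are listed as arms of miR-142a, and capitals mark the seed.
miR-223: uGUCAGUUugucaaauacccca
miR-142-3p: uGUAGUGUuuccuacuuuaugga
miR-142-5p: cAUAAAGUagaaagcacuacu
None of the 3 seeds was shared with another of the 1738 mature mouse entries of the RefSeq table. miR-344f-5p shared bases 2 to 7 with miR-223 but not the whole seed. The Mir142 hairpin is shown to place its arms, which are in capitals.
Mir142: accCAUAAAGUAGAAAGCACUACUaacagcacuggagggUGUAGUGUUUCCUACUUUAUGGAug
The longest exact complement between the arms was 10 bases, from base 12 to base 21 of miR-142-3p against bases 1 to 10 of miR-142-5p, and it covered the whole seed of the 5p arm. miR-142-5p lies at chr11:87756867-87756887 and miR-142-3p at chr11:87756903-87756925, both on the plus strand. The Mir142 gene stands between the protein-coding genes Supt4a and Tspoap1 and overlaps Mir142b, an entry on the opposite strand. The mature miR-142b is the reverse complement of bases 4 to 23 of miR-142-3p. Mature miR-223 lies at chrX:96242884-96242905 on the plus strand, inside the long noncoding RNA F630028O10Rik and between Msn and Vsig4. Probe sequences were not used here, so the letters above are those of the microRNAs and not of the beads.

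Summed raw fluorescence per array ran from 336483 to 679696, a 2.02-fold range. The deposited normalized values are log2 fluorescence with a floor of 3, scaled by the authors towards an equal total per array. In the deposited table, normalized columns and raw columns of the same untreated name did not hold the same array. All 5 untreated normalized columns matched a raw column of another untreated name, with a residual SD of 0.01 to 0.07 on the log2 scale against 0.37 to 0.64 for the column of their own name. Both names of each such pair were untreated, so group values were not affected, but raw and normalized values of 1 untreated animal are not set against each other here. Precision is limited by the number of arrays, and the labels name 8 separate animals.

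All 3 members were bright on every array. Raw fluorescence of miR-223 on the untreated arrays was 7751, 7701, 7511, 8783.5 and 7764.5. The treated arrays read 6787 for animal 1 in batch 1, and 8842, 8568.5 and 8988.5 for animals 1, 2 and 3 in batch 2. The batch 1 array of the treated animal was thus the dimmest of all for miR-223, while 2 of the 3 batch 2 arrays lay above every untreated array. For miR-142-3p the untreated arrays read 7425.5, 7787, 6730, 7542.5 and 7209, and the treated arrays read 7940 in batch 1 and 9167, 8622 and 8677 in batch 2. Every treated array was brighter than every untreated array for this arm, before any scaling. Within batch 1 the margin was narrow, with 7940 for the treated animal against 7787 for the brightest untreated array. The same treated animal read 9167 in batch 2, where its array also had a higher raw total, 583145.5 against 382839.5 in batch 1. The parts of batch and of total signal in this separation were not tested. How many other probes separated the groups in raw values was not counted. Raw totals were 505444 to 590791.5 on the batch 2 arrays and 336483 to 679696.5 on the untreated arrays. With raw values at an equal total, the change of this arm was 0.0976 on the log2 scale (limma adjusted p = 0.816). For miR-142-5p the untreated arrays read 6660, 6581.5, 4492, 7987.5 and 6754.5, and the treated arrays read 5557 in batch 1 and 8197.5, 6820.5 and 7960 in batch 2. The groups overlapped for the 5p arm, whose untreated values had the widest range of the 3 members at 1.78-fold, against 1.17-fold for miR-223 and 1.16-fold for miR-142-3p. The background wells read 11 to 69 for these probes. The brightest probe of each array read between 11327 and 14764.

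**Figure D1:**
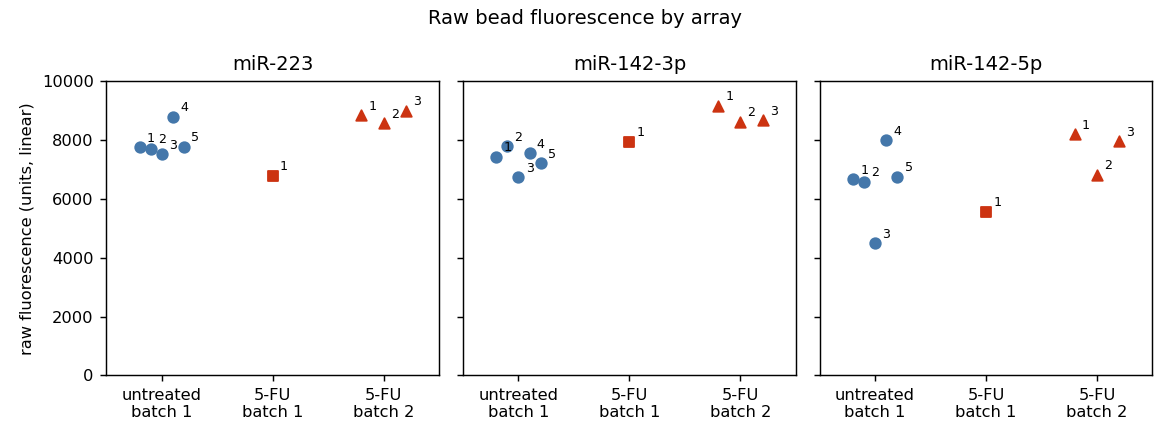
Raw bead fluorescence (vertical axis, linear units from 0) of miR-223, miR-142-3p and miR-142-5p on each of the 9 arrays, with points numbered by animal as the raw columns are named. For miR-142-3p all 4 treated arrays lie above all 5 untreated arrays, while miR-142-5p spreads from 4492 to 7987.5 in the untreated group.

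After the authors' scaling, the level of miR-223 was 12.85, 13.18, 12.29, 12.64 and 12.63 in untreated animals 1 to 5 on the log2 scale. The treated arrays stood at 12.83 for animal 1 in batch 1, and at 12.43, 12.59 and 12.44 for animals 1, 2 and 3 in batch 2. All 4 treated arrays fell inside the untreated range. miR-142-3p stood at 12.75, 13.02, 12.07, 12.66 and 12.57 in untreated animals, and at 13.06 in batch 1 and 12.93, 13.04 and 12.83 in batch 2 in treated animals. The treated arrays of this arm were at the top of the untreated range, with untreated animal 2 among them. miR-142-5p stood at 12.66, 12.44, 12.15, 12.41 and 12.41 in untreated animals, and at 12.55 in batch 1 and 12.26, 12.19 and 12.20 in batch 2 in treated animals. Its batch 2 arrays were near the bottom of the untreated range, and its batch 1 array near the top. Among the untreated animals, animal 3 held the lowest value of each member, and animal 2 the highest value of miR-223 and of miR-142-3p.

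**Figure D2:**
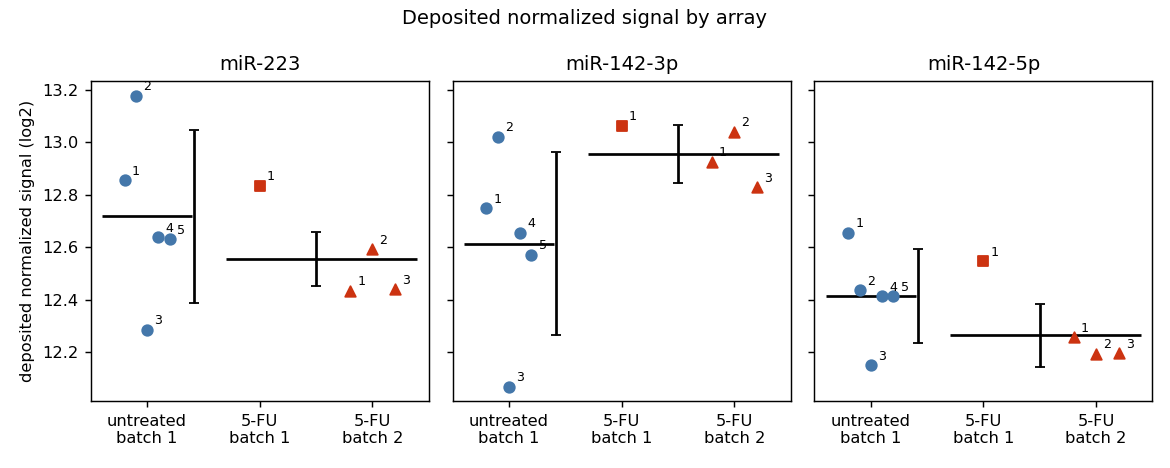
Deposited normalized level (vertical axis, log2 fluorescence) of the 3 members on each array, with untreated animals and the 2 batches of 5-FU animals apart and each point numbered by animal. miR-223 and miR-142-5p of treated animals lie inside the untreated range, and miR-142-3p of treated animals lies at its upper end, from 12.83 to 13.06.

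The comparison of treated with untreated marrow asks whether the level of these microRNAs changed after 5-FU, on the deposited scale. None of the 3 passed the test. miR-223 went from 12.72 ± 0.33 (SD, n = 5) to 12.56 ± 0.10 (SD, n = 3), a change of -0.16 on the log2 scale (SE 0.19, 95% confidence interval -0.61 to 0.29, limma adjusted p = 0.522). miR-142-3p went from 12.61 ± 0.35 (SD, n = 5) to 12.95 ± 0.11 (SD, n = 3), a change of 0.34 (SE 0.20, interval -0.14 to 0.82, limma adjusted p = 0.229). All 3 treated animals lay above the untreated mean of this arm and 1 of 3 lay above the highest untreated animal. miR-142-5p went from 12.41 ± 0.18 (SD, n = 5) to 12.26 ± 0.12 (SD, n = 3), a change of -0.15 (SE 0.11, interval -0.42 to 0.12, limma adjusted p = 0.329). As ratios of treated over untreated these are 0.894 for miR-223 (interval 0.654 to 1.22), 1.27 for miR-142-3p (0.909 to 1.77) and 0.901 for miR-142-5p (0.748 to 1.09). The intervals therefore leave room for a change in either direction, of up to 1.77-fold for miR-142-3p. In whole marrow, fewer cells of a type and less RNA per cell cannot be told apart.

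The members were read against the rest of the array. Of 379 tested probes, limma called 154, or 40.6%, of which 59 were higher (15.6%) and 95 lower (25.1%) after 5-FU, at an adjusted p under 0.05. The members gave 0 of 3. Without 5-FU animal 2, or without animal 3, the count called higher was 31. At 189 of the tested probes, or 49.9%, the treated and untreated animals did not overlap, and among the members this was so for 0 of 3. A larger change in either direction than that of miR-223 was seen at 269 of 379 probes, than that of miR-142-5p at 278 and than that of miR-142-3p at 195. Over all tested probes the change had a median of -0.16 on the log2 scale and an SD of 0.82, so miR-223 and miR-142-5p lay close to the median of the array. For the members, the false discovery rates in the authors' deposited table were 0.481 for miR-223, 0.127 for miR-142-3p and 0.401 for miR-142-5p, each from 5 untreated and 4 treated arrays. That rate was under 0.05 for 92 of 168 probes in the authors' deposited table.

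Batch moved with the groups, and 5-FU animal 1 is the link between the batches. Its level in batch 2 minus that in batch 1 was -0.40 for miR-223, -0.14 for miR-142-3p and -0.29 for miR-142-5p on the deposited log2 scale. On the log2 scale of raw fluorescence the same 2 arrays differed in the opposite direction, by 0.38, 0.21 and 0.56. Against the 5 untreated animals of its own batch, the treated animal stood higher by 0.12 for miR-223, 0.45 for miR-142-3p and 0.13 for miR-142-5p. With 1 treated animal the limma adjusted p was 1, 0.708 and 0.884. In a fit over all 9 arrays with batch as a term, batch 2 holds no untreated animal, so the 5-FU term again rests on that 1 array and its changes are the same. The limma adjusted p was 0.966, 0.510 and 0.762 there, and none of the 3 members was called. That fit called 37 of 379 probes, or 9.76%, with 9 higher (2.37%) and 28 lower (7.39%). The direction for miR-223 and miR-142-5p thus turned with the batch, and that for miR-142-3p was upward both ways. Batch 2 columns also carried a probe-specific term beside their raw values. It was 0.66 for miR-142-3p, 0.22 for miR-223 and 0.15 for miR-142-5p relative to the median of their bead pool, where its SD over 138 probes was 0.52, and 7 of 138 probes had a higher one than miR-142-3p. No label or header gives the origin of the term, and its part in the results was not tested.

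Scaling bore on the 3 members as well. Deposited columns of batch 2 sum to less than those of batch 1, and with every array brought to the same total the change was -0.0249 for miR-223, 0.48 for miR-142-3p and -0.0129 for miR-142-5p (limma adjusted p of 0.921, 0.0844 and 0.929). With each array centred on its median, miR-142-3p was called higher, at 0.98 (limma adjusted p = 0.0389), but that centring also moved the median change of all tested probes from -0.16 to 0.38. From raw values the change in miR-142-3p was smaller, at 0.0976 with an equal total, 0.12 with quantile scaling, 0.24 with control beads and 0.10 without background subtraction. It was above 0 in 24 of 24 alternatives, some of which alter only the test or the filter and so leave the value as it is, and it passed the threshold in 1. miR-223 was above 0 in 4 of 24 alternatives and miR-142-5p in 7 of 24.

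The difference between 2 probes on the same array does not depend on a factor shared by the whole array, so the members were also compared with each other. miR-142-3p minus miR-142-5p, the 2 arms of 1 hairpin, was 0.09, 0.59, -0.08, 0.24 and 0.16 in untreated animals. In treated animals it was 0.52 in batch 1 and 0.67, 0.85 and 0.63 in batch 2. Untreated animals averaged 0.20 ± 0.25 (SD, n = 5) and treated animals 0.69 ± 0.14 (SD, n = 3), and the difference of 0.49 had p = 0.0357 by an exact two-sided permutation test, the smallest p that 56 splits allow. Adjusted over the 3 pairs it was 0.0536, and no pair could have come under 0.05 unless all 3 had reached the smallest p. Within batch 1, against the 1 treated animal, the difference was 0.32 (exact permutation p = 0.667). The treated animals lay above the untreated ones by a gap of only 0.0075, set by untreated animal 2. With the batch 1 array alone standing for 5-FU animal 1 the exact permutation p was 0.0714.

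miR-142-3p minus miR-223 was -0.10, -0.16, -0.22, 0.02 and -0.06 in untreated animals, and 0.23 in batch 1 and 0.49, 0.45 and 0.39 in batch 2 in treated animals. All 4 treated arrays lay above all untreated arrays, the batch 1 array included. The mean went from -0.10 ± 0.090 (SD, n = 5) to 0.40 ± 0.045 (SD, n = 3), a difference of 0.50 with an exact permutation p of 0.0357, adjusted 0.0536. Within batch 1 the difference was 0.33 (exact permutation p = 0.333, the smallest that 1 animal against 5 allows). miR-223 minus miR-142-5p was 0.20, 0.74, 0.14, 0.23 and 0.22 in untreated animals, and 0.29 in batch 1 and 0.18, 0.40 and 0.24 in batch 2 in treated animals. Its mean was 0.30 ± 0.25 (SD, n = 5) and 0.29 ± 0.093 (SD, n = 3), with a difference of -0.01 and an exact permutation p of 0.786. Without untreated animal 2 that difference was 0.10. The normalized data thus placed miR-142-3p higher against both other members in treated animals, and by less within batch 1. The permutation p was the lowest the design allows before adjustment, but batch moved with the groups. These differences also hold the probe-specific term of the batch 2 columns. That term was 0.66 for miR-142-3p, against 0.22 for miR-223 and 0.15 for miR-142-5p, and its part here was not tested.

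In the raw fluorescence these differences were smaller. The change was 0.07 for miR-142-3p minus miR-142-5p (exact permutation p = 0.714, adjusted 0.929) and 0.14 for miR-142-3p minus miR-223 (p = 0.107, adjusted 0.321). It was -0.07 for miR-223 minus miR-142-5p (exact permutation p = 0.929). Raw batch 2 arrays had a difference between the arms of 0.12 to 0.34, inside the untreated range of -0.08 to 0.58. Raw miR-142-3p minus miR-223 was 0.23 on the batch 1 array of the treated animal, above the untreated maximum of 0.02, and -0.05 to 0.05 in batch 2. For the difference between the arms, the batch 2 arrays thus stood above the untreated ones in the normalized values and among them in the raw values. For miR-142-3p minus miR-223, 1 of the 3 batch 2 arrays, that of animal 1 at 0.05, stood above the untreated ones in the raw values, and the batch 1 array did so in both tables.

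**Figure D3:**
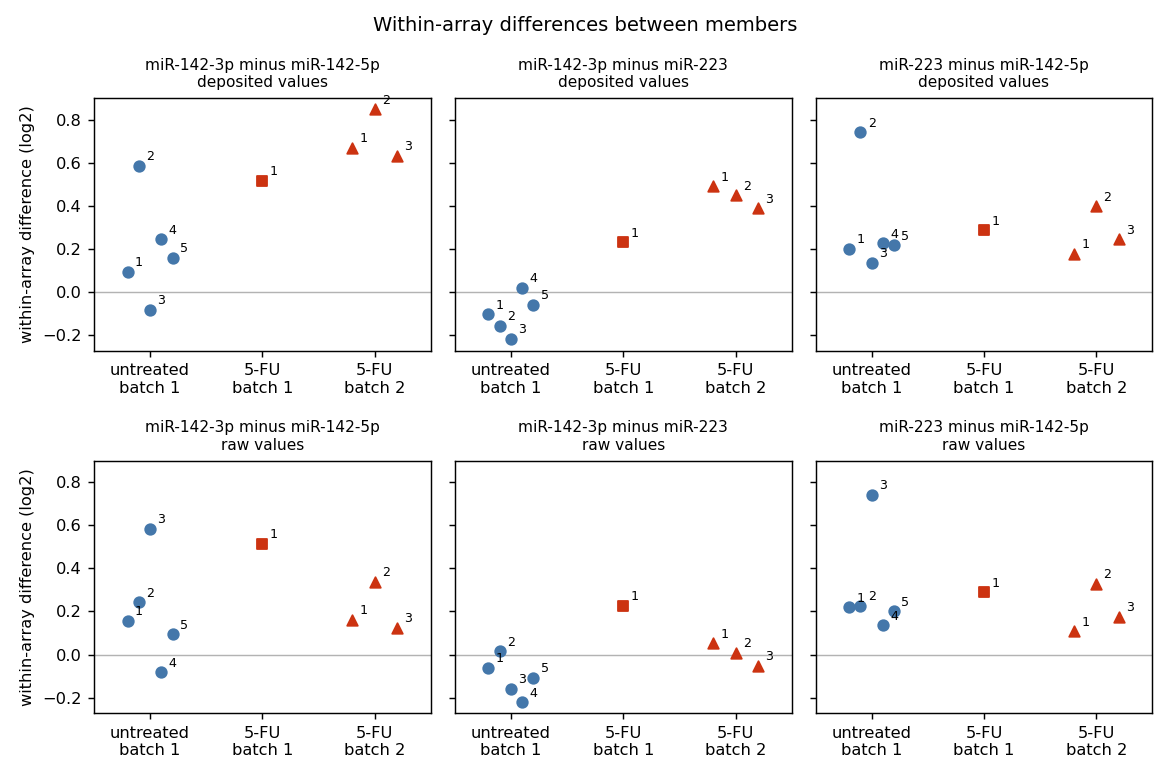
Within-array difference (vertical axis, log2) between each pair of members on every array, from the deposited normalized values and from raw fluorescence. In the normalized values miR-142-3p minus miR-223 is -0.22 to 0.02 in untreated animals and 0.23 to 0.49 on treated arrays, and in the raw values the batch 2 arrays come down to -0.05 to 0.05.

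Of the members, miR-142-3p and miR-223 also differed from most probes in how they spread over the untreated animals. Among 113 probes of the same bead pool above log2 7 on all arrays, miR-142-3p had the lowest raw SD, 0.080 on the log2 scale, and miR-223 the next lowest, 0.089, while the median probe had 0.56. miR-142-5p had 0.31, with 24 probes lower. After scaling, the SD of miR-142-3p was 0.35 and that of miR-223 was 0.33, against a median of 0.24 over the 113 probes. Scaling thus narrowed the median probe and widened these 2 members. A normalized SD above the raw SD was found at 12 of 113 probes, whose median raw level was 13.06 on the log2 scale against 11.11 for the other 101. Besides these 2 members, the 12 included miR-16, miR-144, miR-26a and miR-106b, so the widening was not particular to the members. The highest normalized miR-223, 13.18, came from the raw array with the lowest total, 336483, and the lowest, 12.29, from the array with the highest, 679696. miR-142-5p narrowed from 0.31 to 0.18. Level alone did not separate the probes, since 27 of the 101 lay above 12.10, the lowest mean raw level of the 12.

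**Figure D4:**
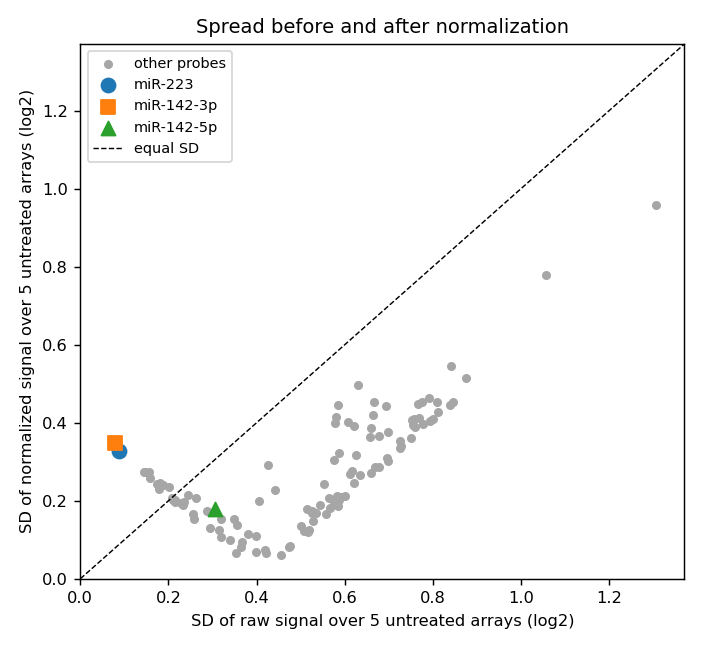
Spread over the 5 untreated animals (SD, log2) of raw and normalized values for 113 bright probes of the members' bead pool. miR-142-3p and miR-223 have the lowest raw SD, 0.080 and 0.089, and normalized SDs of 0.35 and 0.33.

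The microRNAs that ran closest to each member were found by the SD of the within-array difference over 8 animals, among 107 bright probes, as a description. For miR-223 these were miR-144 (SD 0.084), a microRNA of red cell precursors, miR-106b (0.108), let-7i (0.112) and miR-20a (0.113), against a median of 0.51 over the candidates. For miR-142-3p they were miR-16 (0.091), miR-21 (0.119), miR-26a (0.127) and miR-23a (0.143), against a median of 0.62. For miR-142-5p they were miR-17 (0.090) and miR-19b (0.102), both of the growth-promoting miR-17-92 cluster, then miR-27a (0.108) and miR-24 (0.112), against a median of 0.41. Over 8 animals the 3 members ran less closely with each other, at 0.27 for miR-223 and miR-142-3p, 0.19 for miR-223 and miR-142-5p, and 0.32 for the 2 arms of miR-142. In the untreated animals alone miR-223 and miR-142-3p stood at 0.090, against 0.102 for miR-223 with miR-144 and 0.101 for miR-142-3p with miR-16. There miR-144 and miR-16 each ranked 2 among the candidates, so another candidate ran closer to each of these members. The pair of members was not compared with those closer candidates. The 2 arms of miR-142 stood at 0.25 there. All these probes share arrays, so the SDs are not independent of each other. miR-144, miR-106b, miR-20a, miR-16, miR-21 and miR-26a were also among the 12 probes with a normalized SD above the raw SD. let-7i, miR-23a and the 4 closest to miR-142-5p were not. The part of array scaling in this closeness was not tested.

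Lineage microRNAs were set beside the members, and no listed probe was at the floor in any animal. Of 7 microRNAs associated with granulocytes and monocytes, 1 passed the test upward and none downward, with a median change of 0.29. That share is near the 15.6% called higher among all tested probes, and without untreated animal 2 the count was 2. It was miR-146a, a brake on inflammatory signalling, at 0.56 (SE 0.05, limma adjusted p = 0.000698), and at 0.21 with raw values at an equal total, where it was not called (limma adjusted p = 0.246). The summed linear level of the 7 was 27221 to 32443 in untreated and 35180 to 36689 in treated animals. Among the 7, the probe of miR-424 is named for the human microRNA only. All 4 lymphocyte microRNAs passed downward, with a median change of -0.89. They were miR-181b at -1.80, miR-181a at -0.92, miR-342-3p at -0.86 and miR-150, which marks mature lymphocytes, at -0.39. Within batch 1 miR-150 was at 0.04, and both miR-150 and miR-342-3p turned upward under each scaling of the raw values. Their summed level was 11203 to 12165 in untreated and 5991 to 6815 in treated animals. Of 3 erythroid microRNAs, 1 passed downward, against 25.1% of all tested probes. It was miR-451 at -0.70, but at -0.01 within batch 1 and not called without 5-FU animal 3. The erythroid summed level was 18862 to 23511 in untreated and 16040 to 19103 in treated animals. The summed level of the 3 members was 13830 to 23131 in untreated and 17529 to 19932 in treated animals, so the groups overlapped.

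The endothelial, stromal and smooth muscle, and skeletal muscle lists held 7 probes that passed upward of 9 measured. Among all 379 tested probes, 59, or 15.6%, were called higher in the same fit. Both microRNAs of the endothelial list passed upward, miR-126-5p at 1.61 and miR-126-3p at 0.90. Their summed level was 1983 to 3007 in untreated and 4906 to 5555 in treated animals. Of 4 stromal and smooth muscle microRNAs measured of 5 listed, 2 passed upward, miR-143 at 1.11 and miR-145 at 1.06, while miR-199a-5p at 0.42 and miR-214 at 0.53 did not pass, and the sum went from 1444 to 2584 in untreated to 3256 to 3981 in treated animals. All 3 skeletal muscle microRNAs measured of 4 listed passed upward, miR-133b at 1.16, miR-206 at 1.04 and miR-1 at 0.80, with sums of 4807 to 9663 in untreated and 12797 to 13692 in treated animals. Without 5-FU animal 2, or without animal 3, the muscle count was 1, and the stromal count was 1 without any 1 of the 3 treated animals or without untreated animal 4. miR-1 kept its call in 10 of 23 alternatives. Against batch 1 alone, which holds 1 treated animal, the changes were 1.51 for miR-126-5p, 0.76 for miR-126-3p, 1.29 for miR-143, 0.96 for miR-145, 1.15 for miR-133b, 0.78 for miR-206 and 0.97 for miR-1. With batch as a term, miR-126-5p and miR-143 passed among these 7, where 2.37% of all tested probes were called higher. These levels share the array total with the members, and their part in the members' values was not tested.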

How the data were processed

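The authors deposited normalized values on a log2 scale with a floor of 3; the series design text says that all samples were taken to have the same total. Raw bead fluorescence intensity, with background wells, was deposited beside them, per the file headers. Each deposited p-value of the members equals that of an unequal-variance test in which 5-FU animal 1 enters as 2 arrays. Total RNA was ligated to adaptors, amplified by RT-PCR and read on beads with streptavidin-phycoerythrin, per the labels' protocols. No label or header names the software of these steps.

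The 12 control bead rows were left out, and log2 values were averaged over the 2 arrays of 5-FU animal 1. Probes that exceeded the floor in 3 or more of the 8 animals (379 of 582) entered limma 3.58.1 in R 4.3.3, with lmFit and eBayes, two-sided, Benjamini-Hochberg adjusted over all tested probes, at a threshold of 0.05. Of all normalized values, 46.8% lay at the floor. Pair differences were tested by exact permutation over 56 splits. The fit was tested on simulated data. Summed linear values per deposited column ran from 401283 to 402143 for batch 1, and from 355655 to 362039 for batch 2. The series value table equalled the normalized table at 582 of 582 probes.

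Named microRNAs are the 3 members, the 4 closest to each, and up to 4 called members of each lineage list. miR-344f-5p and miR-142b are named for their sequence, and miR-424 for its human probe name. miR-199a-5p and miR-214, stromal and smooth muscle list members that were not called, were named after their values were seen. The members and lists were chosen with earlier results of these data known. Alternatives covered the array of 5-FU animal 1, batch, the replicate block, the test, moderation, scaling of deposited and raw values, filters and leaving out each animal.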

Additional observations from a re-analysis of the deposited data

Results flagged for a closer look

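Of 22 groups of member values examined for a sample far from the others, 2 stood out, and chance gives such a result in about 5% of groups. The within-array difference of miR-223 minus miR-142-5p in untreated animals was 0.74 in animal 2, against 0.14 to 0.23 in the other animals, and the gap took up 0.852 of the whole range. The raw fluorescence of miR-223 was 8783.5 on the array named for untreated animal 4, against 7511 to 7764.5 on the other untreated arrays, and the gap took up 0.801 of the range. That array had the highest raw total, 679696.5. The normalized column of untreated animal 2 matched the raw array with the lowest total, 336483.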

How the results depend on the processing

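With batch as a term and within batch 1 the change was 0.12 for miR-223, 0.13 for miR-142-5p and 0.0416 for miR-150, all turned in sign. Median centring turned miR-223 (0.48), miR-142-5p (0.49) and miR-150 (0.25), and took miR-142-3p to 0.98, past the threshold. From raw values, miR-142-5p turned to 0.0295 at an equal total, 0.0063 with quantile scaling, 0.17 with control beads and 0.0332 without background subtraction, and miR-223 to 0.10 with control beads. In the same order miR-342-3p turned to 0.16, 0.25, 0.30 and 0.16, and miR-150 to 0.0931, 0.13, 0.23 and 0.10. The difference of miR-223 minus miR-142-5p turned to 0.0061 with the batch 1 array for 5-FU animal 1. The cause was not tested. The count of probes called higher, 59, became 21 with that array, 9 with batch as a term, 4 within batch 1, 143 with centring, 27 at the raw equal total, 11 with control beads, 34 without background subtraction and 18 above log2 7. The count called lower, 95, became 28 with batch as a term, 8 within batch 1, 49 with centring, 30 at the raw equal total, 48 with quantile scaling, 9 with control beads and 40 without background subtraction. Same-numbered animals deviated with correlations of 0.05, 0.35 and 0.17 over 379 probes, and 2 of the 3 treated animals correlated best with their own number. The first is under 0.1 and the labels name no shared source, so the numbers were not used as pairs. With a replicate block the counts were 11 and 41 and the members changed by -0.22, 0.34 and -0.15 for miR-223, miR-142-3p and miR-142-5p. Leaving out 1 animal at a time gave -0.27 to -0.05 for miR-223, 0.21 to 0.44 for miR-142-3p, -0.22 to -0.09 for miR-142-5p, -0.0654 to 0.10 for miR-223 minus miR-142-5p, 0.41 to 0.59 for miR-142-3p minus miR-142-5p, 0.47 to 0.53 for miR-142-3p minus miR-223, and 31 to 69 probes higher and 64 to 106 lower. The 8 animals and the floor limit what can be seen, and within batch 1 there was 1 treated animal.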
